A study of Mus musculus with 2 samples.

Results

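A set of 10 genes of the extracellular matrix were followed in leukocyte-sorted cells of mouse tumours. The count table lists 22836 genes, and all 10 of the set were found there: Mgp, Sparc, Timp3, Col1a1, Col1a2, Col3a1, Ogn, Dcn, Fn1 and Thbs1. They were chosen by name, with earlier results of these data known. The question was which cells of a CD45+ preparation held their reads, and how their levels compared between treatments. Cells were divided by Ptprc, the gene of the CD45 protein by which the cells had been isolated: a cell with under 2 Ptprc reads per 10000 reads was called Ptprc-low, and a cell at 2 or more was counted among the other cells.

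The extracellular matrix is a mesh of collagen fibres, proteoglycans and glycoproteins that in tumours is laid down mostly by fibroblasts and other stromal cells and in part by the tumour cells. Col1a1 and Col1a2 encode the paired chains of type I collagen and Col3a1 the chain of type III collagen, which together make the fibrils of soft tissue. Dcn (decorin) and Ogn (osteoglycin) are small leucine-rich proteoglycans that sit on those fibrils, Sparc is a collagen-binding glycoprotein, and Mgp (matrix Gla protein) is an inhibitor of calcification. Fn1 (fibronectin) and Thbs1 (thrombospondin 1) are large adhesive glycoproteins that macrophages and monocytes are also known to make, and Timp3 is a matrix-bound inhibitor of metalloproteinases.

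The tumours were grown under the skin of the flank of 14 wild-type BALB/c mice from Colon26, a colon carcinoma line of that strain. The minP1 mice (n = 4) received a peptide from the nucleosome-binding protein HMGN1, 0.08 µg into the peritoneum on day 9. The PDL1 mice (n = 3) received an antibody against PD-L1 (clone 10F.9G2), 200 µg on day 4 and again on day 8. The minP1_PDL1 mice (n = 4) received both agents at those doses and days, and Control mice (n = 3) were untreated. No vehicle or isotype antibody is given for Control. Tumours of all mice were taken on day 10, digested with enzymes and freed of tumour cells and dead cells on a density gradient. CD45+ cells of each mouse carried their own hashtag antibody and were sequenced as single cells with BD Rhapsody whole-transcriptome chemistry. The labels call the cells intestinal, although the tumours were subcutaneous.

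A total of 7732 cells were kept, 466 to 724 per mouse, with 26007834 to 51230461 reads per mouse and a median of 30312 to 57305 reads per cell and mouse. The deposited counts are reads that were not collapsed by molecular identifier: the median nonzero entry was 10 reads and 18.02% of nonzero entries were 1. Reads of 1 molecule are therefore not independent, and each test below took the mouse as its unit. No barcode name occurred more than once. All 14 mice are hashtags of 1 deposited cDNA library, and no sequencing run is given for any mouse. Whether a run or batch within that library went with a group cannot be checked.

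The 10 genes lie on 6 chromosomes of the mouse genome (build GRCm38, GENCODE M21), and all are protein-coding. Mgp is at chr6:136872435-136875823 and Col1a2 at chr6:4504814-4541544. Sparc is at chr11:55394500-55423183 and Col1a1 at chr11:94936224-94953042. Timp3 is at chr10:86300372-86349506 and Dcn at chr10:97479609-97518143, while Col3a1 is at chr1:45311538-45349706 and Fn1 at chr1:71585520-71653200. Ogn is at chr13:49608046-49624501 and Thbs1 at chr2:118111876-118127133. Timp3 overlaps Syn3, Ogn overlaps Cenpp and Fn1 overlaps Apol7d, each on the opposite strand. Whether the counting used strand is not given in the sources used here, so reads of these 3 genes and of the partner cannot be told apart.

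Promoter sequence was at hand for 5 of the 10 genes (RefSeq, GRCm38.p6), and all 5 are printed so that the motif matches can be read from them. Each runs 5′ to 3′ over the 250 bases before the RefSeq start, which can differ from the GENCODE bounds given above. The Col1a2 and Sparc sequences lie inside those bounds, and the Timp3 sequence lies partly inside them. Capitals mark CAGACA (the core bound by Smad proteins) or CATTCCT (the core bound by TEAD proteins) on either strand.
Col1a2, chr6:4505368-4505617, plus strand: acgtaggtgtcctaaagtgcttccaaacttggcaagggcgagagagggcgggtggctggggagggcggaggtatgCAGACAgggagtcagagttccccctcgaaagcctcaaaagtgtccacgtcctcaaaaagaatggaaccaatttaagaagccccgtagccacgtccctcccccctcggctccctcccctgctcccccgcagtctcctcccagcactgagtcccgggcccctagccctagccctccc
Col3a1, chr1:45311288-45311537, plus strand: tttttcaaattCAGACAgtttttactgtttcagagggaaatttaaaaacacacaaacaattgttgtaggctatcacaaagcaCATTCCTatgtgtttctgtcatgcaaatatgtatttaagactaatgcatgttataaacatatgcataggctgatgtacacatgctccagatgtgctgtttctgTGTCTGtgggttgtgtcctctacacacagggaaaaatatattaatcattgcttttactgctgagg
Sparc, chr11:55420081-55420330, minus strand: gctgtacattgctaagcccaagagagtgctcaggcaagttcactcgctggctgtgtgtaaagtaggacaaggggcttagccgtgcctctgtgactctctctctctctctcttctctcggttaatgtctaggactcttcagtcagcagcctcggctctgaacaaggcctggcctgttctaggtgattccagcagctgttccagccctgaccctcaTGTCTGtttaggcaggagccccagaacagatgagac
Ogn, chr13:49607765-49608014, plus strand: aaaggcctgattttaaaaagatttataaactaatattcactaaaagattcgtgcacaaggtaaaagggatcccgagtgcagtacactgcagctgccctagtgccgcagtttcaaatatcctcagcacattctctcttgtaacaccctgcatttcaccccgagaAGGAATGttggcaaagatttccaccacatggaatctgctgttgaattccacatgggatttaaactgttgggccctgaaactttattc
Timp3, chr10:86300162-86300411, plus strand: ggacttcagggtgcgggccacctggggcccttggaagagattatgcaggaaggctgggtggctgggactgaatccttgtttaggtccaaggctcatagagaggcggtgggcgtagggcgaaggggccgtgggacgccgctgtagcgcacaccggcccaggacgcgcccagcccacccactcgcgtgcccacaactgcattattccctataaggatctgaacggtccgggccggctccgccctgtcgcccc
The Timp3 promoter held neither motif. CAGACA was present in Col1a2, Col3a1 and Sparc, 3 of the 5 promoters, against 17.1% of the 32851 promoters of the same length searched on both strands. CATTCCT was present in Col3a1 and Ogn, 2 of 5, against 4.51% of all promoters. The shorter core GGAATG, which is contained in the reverse of CATTCCT, was in those same 2 promoters, against 12.6%. TATAAA was in Col3a1 and Ogn (12.4% of all), CCAAT in Col1a2 (33.8%), GGGCGG in Timp3 and Col1a2 (32.7%), and the AP-1 core TGANTCA in none of the 5 (6.75%). These are matches of letters and do not show binding.

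Ptprc-low cells numbered 1378 of 7732 (17.8%) and held 20.0% of all reads. In a clustering of all cells made without the 10 genes and without the other matrix genes, 468 of them fell into 1 cluster of 501 cells, whose leading genes were Mgp, Baiap2l1, Timp3, Ereg, Sparc, Tm4sf1, Hmga2, Cald1, Cyr61 and Col1a2. A further 43 fell into a small epithelial-like cluster with Epcam, Krt8 and Krt18, and the other 867 were spread over leukocyte clusters. The large cluster is called the matrix-gene cluster here, and it was given no cell type name.

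Markers of the matrix-gene cluster were mixed. Its cells had a median of 147891 reads, 3.82 times the median of the mouse that each came from. Ptprc was at 48.5 CPM (CPM here is the usual depth-scaled count, from reads summed over the cells of a set) and at 1479 CPM in the cells not called Ptprc-low. That gap follows largely from the Ptprc rule, as 93.4% of the cluster's cells were Ptprc-low. The 8 genes of a pan-leukocyte list summed to 161 to 654 CPM per mouse in the cluster and to 7401 to 8240 CPM in the other cells. The other cells were chosen by their Ptprc reads, so this gap is not separate from the Ptprc rule either. The fibroblast markers Pdgfra and Pdgfrb were at 52.6 and 19.1 CPM, against 1.32 and 0.622 CPM in the other cells, while Thy1 (14.8 against 355 CPM) and Pdpn (43.3 against 86.4 CPM) were lower there. The whole fibroblast list (8 of 9 genes in the table) was not higher in the cluster. It summed to 256 to 656 CPM per mouse there and to 539 to 681 CPM in the other cells. Thy1 alone, at 355 CPM, made up much of the sum in the other cells. The sum without Thy1 is not given here, so the sums do not show how the rest of the list compared. The epithelial markers Epcam (0.268 CPM), Krt8 (0.204 CPM) and Krt18 (0.281 CPM) were near 0. The 8 genes of a pericyte or smooth muscle list summed to 5.31 to 25.2 CPM per mouse in minP1, 9.27 to 1331 CPM in PDL1, 4.46 to 34.1 CPM in minP1_PDL1 and 20.3 to 33.7 CPM in Control. An endothelial list (6 of 8 genes in the table) summed to 0 to 334 CPM in minP1, 0 to 0.486 CPM in PDL1, 0 to 7.38 CPM in minP1_PDL1 and 3.99 to 79.6 CPM in Control. Colon26 cells, stromal cells and cells of other kinds cannot be told apart by these markers.

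Mgp, Sparc, Timp3, Col1a1, Col1a2 and Ogn, 6 of the 10 genes, had most of their reads in Ptprc-low cells, and within those in the matrix-gene cluster. Averaged over 14 mice, Ptprc-low cells held 93.8% ± 5.17 (SD) of Timp3 reads, 93.5% ± 7.20 of Ogn, 92.8% ± 5.29 of Sparc, 92.0% ± 5.22 of Col1a2, 91.7% ± 15.2 of Mgp and 84.8% ± 6.30 of Col1a1. The lowest mouse still had 72.8% for Ogn, 72.9% for Col1a1, 81.0% for Col1a2, 81.6% for Sparc and 83.3% for Timp3. Mgp was the exception, at 40.7% in 1 mouse. For comparison, these cells held 20.0% of reads over all genes, and the 468 Ptprc-low cells of the cluster alone held 83.3% (Col1a1) to 93.8% (Timp3) of pooled reads of these 6 genes. Dcn, Col3a1, Fn1 and Thbs1 were divided otherwise.

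Decorin was carried by few cells, and mostly not by the matrix-gene cluster. Dcn had reads in 58 cells, and its share in Ptprc-low cells was 76.9% ± 36.4 over mice. Of all Dcn reads, 55.8% lay in 13 Ptprc-low cells of the epithelial-like cluster and 7.99% in Ptprc-low cells of the matrix-gene cluster. A single cell of Control_2 held 1782 Dcn reads, 33.7% of the total. That cell had 206435 reads and stood in the dendritic-cell-like class, with 1346 reads of Cd74 and 885 of H2-Ab1 (antigen presentation) and 69 of Ptprc, but it also held 119 reads of Pdgfra, more than any other cell, and 0 of Epcam and Krt8. Whether it is 1 cell or a pair read as 1 was not tested.

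The same cell weighed on type III collagen. It held 584 reads of Col3a1, 28.6% of the 2039 reads of that gene, which was found in 72 cells only. Its rank among all kept cells was 3 for Col1a1 (171 reads) and for Col1a2 (609 reads) and 5 for Sparc (744 reads), and it held 0 reads of Timp3. Without it, the pooled share in Ptprc-low cells was 87.4% in place of 62.3% for Col3a1 and 96.9% in place of 64.2% for Dcn.

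**Figure D1:**
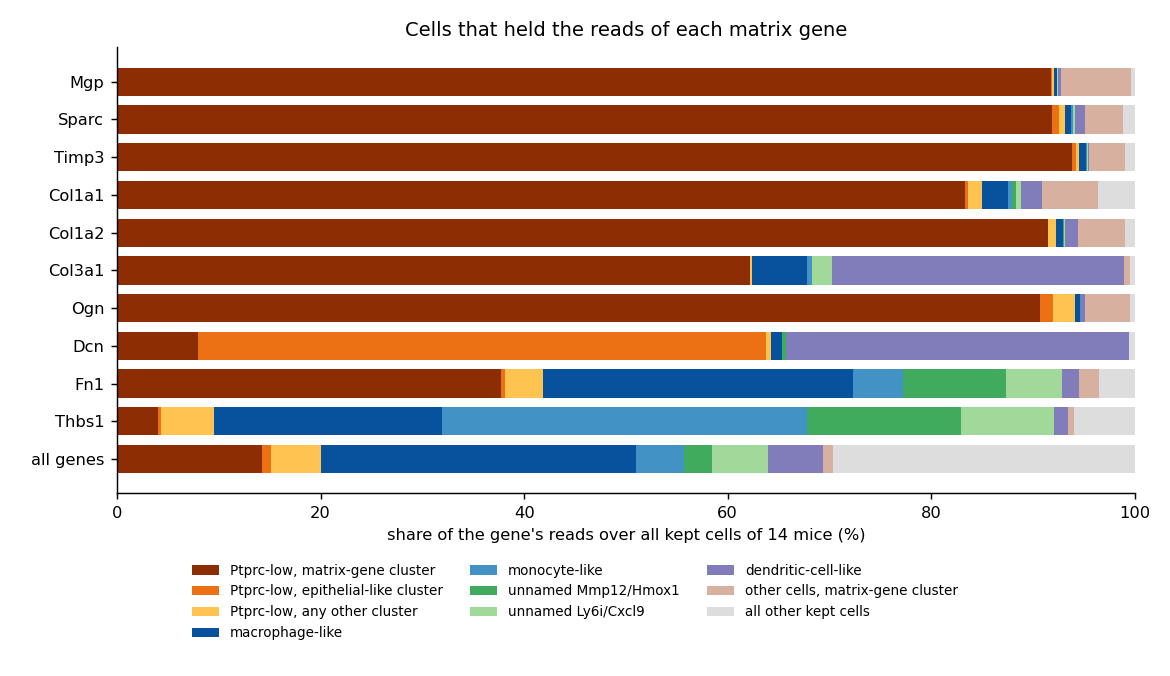
Share of each gene's reads (%, horizontal axis, 0 to 100) held by each class of cells, pooled over all kept cells of 14 mice, with all genes together in the bottom bar. The Ptprc-low part of the matrix-gene cluster fills 83.3% to 93.8% of the bars of Mgp, Sparc, Timp3, Col1a1, Col1a2 and Ogn, the epithelial-like cluster 55.8% of the Dcn bar, and Thbs1 is divided among myeloid classes.

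Fibronectin and thrombospondin 1 belonged to both sides of the Ptprc division. Ptprc-low cells held 39.9% ± 17.5 of Fn1 reads (SD, n = 14 mice, range 17.9% to 76.6%), and macrophage-like cells held 30.8% ± 12.97. For Thbs1 the Ptprc-low share was 10.6% ± 5.94, against 35.5% ± 10.98 in monocyte-like and 23.2% ± 7.41 in macrophage-like cells. The monocyte-like class made up 5.30% of kept cells and 4.67% of their reads, so its part of Thbs1 was well above its part of all reads.

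The levels were then compared within each mouse between Ptprc-low and other cells, from reads summed per mouse and tested with edgeR's quasi-likelihood test with the mouse as a block. This comparison called 57.9% of 14388 genes at an adjusted p under 0.05 (Benjamini-Hochberg over all genes tested), 25.5% higher and 32.4% lower, with a median log2 change of -0.14. With so many genes called, the size of a change is given with each call. In all, 9 of the 10 genes were higher in Ptprc-low cells and Thbs1 was lower, and the median of the 10 was 5.89 on the log2 scale. The 10 genes were chosen with earlier results of these data known, so this count is a description and not a test of the set.

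The type I collagen chains were among the best measured. Col1a1 had a lowest, median and highest level over mice of 50.8, 85.4 and 138 CPM in Ptprc-low cells, against 1.64, 2.90 and 10.6 CPM in other cells (log2 change 4.68, SE 0.25, adjusted p = 7.4e-11). Col1a2 had 218, 394 and 617 CPM in Ptprc-low cells, against 0.656, 6.44 and 30.4 CPM in other cells (5.87, SE 0.36, adjusted p = 3.8e-10). For both genes every Ptprc-low value lay above every value of the other cells. Col3a1 had 0, 10.2 and 31.9 CPM in Ptprc-low cells, against 0.0269, 0.418 and 14.6 CPM in other cells, and these ranges overlapped (3.98, SE 0.75, adjusted p = 0.00021). When only cells with no Ptprc read at all were taken as low, the Col3a1 change was 2.42 and did not pass (adjusted p = 0.0919).

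Of the proteoglycans, Ogn was separated and Dcn was not. Ogn had 89.4, 189 and 667 CPM (lowest, median and highest) in Ptprc-low cells, against 0.0872, 1.99 and 13.9 CPM in other cells (log2 change 6.52, SE 0.52, adjusted p = 1.1e-08). Dcn had 0, 11.3 and 138 CPM in Ptprc-low cells, against 0, 0.105 and 43.0 CPM in other cells (5.92, SE 1.12, adjusted p = 0.00022). The Dcn call did not hold with Ptprc-low set under 1 per 10000 reads (3.49, adjusted p = 0.0562) or with no Ptprc read (1.68, adjusted p = 0.379).

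Sparc, Mgp and Timp3 had the widest gaps with Ogn. Sparc had 333, 646 and 1060.2 CPM in Ptprc-low cells, against 3.14, 8.30 and 40.7 CPM in other cells (6.09, SE 0.30, adjusted p = 3.2e-11). Timp3 had 279, 485 and 719 CPM in Ptprc-low cells, against 0.367, 6.20 and 26.0 CPM in other cells (6.41, SE 0.43, adjusted p = 1.2e-09). Mgp had 85.9, 524 and 1220.4 CPM in Ptprc-low cells, against 0.654, 2.14 and 116 CPM in other cells (6.98, SE 0.65, adjusted p = 7e-08). The ranges of Sparc and Timp3 did not overlap, while 1 Mgp value of the other cells (minP1_1) exceeded the lowest Ptprc-low value.

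Fn1 and Thbs1 differed less. Fn1 had 1028, 1580 and 2895 CPM in Ptprc-low cells, against 305.4, 594 and 1007 CPM in other cells (1.45, SE 0.19, adjusted p = 5.2e-06), again without overlap. Thbs1 had 48.5, 107 and 394 CPM in Ptprc-low cells, against 153, 258 and 501 CPM in other cells (-1.13, SE 0.22, adjusted p = 0.00024). With each cell thinned to 10000 reads, so that deep and shallow cells counted alike, Thbs1 was at -0.44 and did not pass (adjusted p = 0.151), and with no Ptprc read it was at -0.44 (adjusted p = 0.166). These 2 settings also called fewer genes in all, 2983 and 4555.

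**Figure D2:**
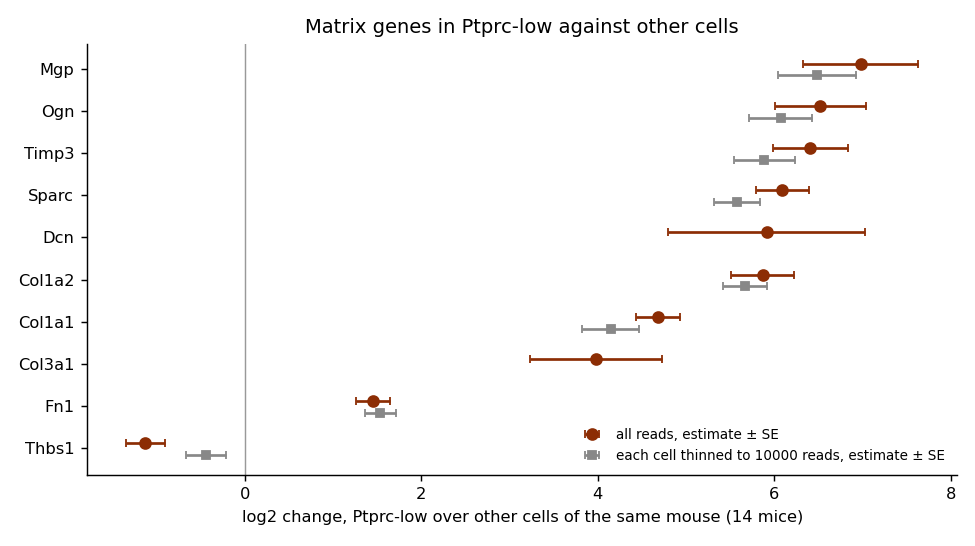
Log2 change of each gene in Ptprc-low over other cells of the same mouse (14 mice), as estimate ± SE, from all reads (circles) and with each cell thinned to 10000 reads (squares). Mgp, Ogn, Timp3, Sparc and Col1a2 lie between 5.87 and 6.98 with all reads, Fn1 at 1.45 and Thbs1 at -1.13, and Col3a1 and Dcn have no thinned estimate.

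The levels are also given by bins of the Ptprc value, as a description. Pooled Sparc was at 620 CPM in the 783 cells with no Ptprc read, 889 CPM in the 419 cells above 0 and under 1 per 10000, 131 CPM in the 176 cells at 1 to under 2, and then 75.9, 44.8, 12.9 and 5.90 CPM in the bins 2 to under 3, 3 to under 5, 5 to under 10, and 10 or more. The cells just inside and just outside the threshold of 2 therefore had 131 and 75.9 CPM of Sparc, and for Mgp 439 and 228 CPM. Not all genes had this order: Thbs1 was highest, at 317 CPM, in the bin of 10 or more, and Dcn was at 99.4 CPM at 1 to under 2, 0 CPM at 2 to under 3 and 54.7 CPM at 3 to under 5. Most of the matrix-gene cluster sat in the lowest bins, 200 and 259 of its 501 cells. Cells with no Ptprc read had a median of 14506 reads, against 128469 reads in the bin above.

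Matrix genes were also read from lists. The collagen list includes Col1a1, reported above, so its counts and median are not separate from that result. Further lists may also hold genes reported above, and no list is read as separate support. Of 15 collagen genes tested (of 22 listed), 12 were higher in Ptprc-low cells and 2 lower, with a median log2 change of 4.68 against -0.14 over all genes. Beside type I collagen, Col8a1 was higher by 6.19 (SE 0.36), Col4a1, a basement membrane chain, by 4.09 (SE 0.25), Col16a1 by 6.80 (SE 0.54) and Col6a1 by 6.54 (SE 0.61). Col8a2 (-6.09) and Col14a1 (-2.22) were lower. Of 8 proteoglycan genes, 6 were higher and 2 lower, among them Hspg2 (perlecan, 6.0), Prelp (6.66), Omd (4.48) and Bgn (biglycan, 4.18), and Srgn, the proteoglycan of leukocyte granules, was at -1.59, as was Vcan at -1.97.

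Glycoproteins and the enzymes that finish collagen leaned the same way. Of 25 matrix glycoproteins, 18 were higher and 4 lower (median 3.80), with Efemp2 at 3.63, Fbln2 at 5.61, Cyr61 at 6.33, Nid1 at 5.99 and Lama5 at 4.66. Of 18 genes of collagen processing and crosslinking, 14 were higher and 2 lower (median 2.101). Serpinh1, the collagen chaperone, was at 5.80, Pcolce, which enhances procollagen cleavage, at 6.23, Bmp1, the procollagen C-proteinase, at 6.28, Plod2, a lysyl hydroxylase, at 2.84 and Loxl3, a lysyl oxidase, at 4.21. These values are log2 changes of genes that passed.

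Proteases and receptors were divided. Of 23 proteases and inhibitors, 10 were higher and 10 lower (median -0.29). The inhibitors Timp2 (2.79) and Timp1 (2.80) and the protease Adamts1 (6.19) were higher. Of 26 matrix receptors, 10 were higher and 13 lower (median -0.23): Ddr2, a receptor of fibrillar collagen, was at 5.63, Sdc2 at 5.38 and Mrc2 at 5.41, and Lair1, an inhibitory collagen receptor of leukocytes, at -2.73. Of 23 genes of the TGF-beta family, 15 were higher and 6 lower (median 1.46), with Tgfbr3 at 5.19 and the latent-form binding proteins Ltbp1 at 5.85 and Ltbp4 at 6.07, and Tgfb1 itself at -1.53. Col8a2, Col14a1, Srgn, Vcan, Lair1 and Tgfb1 were named as examples of lower genes after their values were seen.

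Within the matrix-gene cluster the genes were found in different numbers of cells. With 472 of its cells thinned to 10000 reads, Sparc was found in 433 cells, Fn1 in 405, Col1a2 in 384, Timp3 in 291, Col1a1 in 189, Ogn in 159, Mgp in 154, Thbs1 in 114, Col3a1 in 30 and Dcn in 10. Of the 8 genes other than Fn1 and Thbs1, most cells had 2 to 5, and 6 cells had 0. Mgp was concentrated further, with 40.7% of the cluster's Mgp reads in 10 cells.

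Pairs of genes differed in how they went together from cell to cell. Over the 472 cells, which come from 14 mice and share the thinned depth, Spearman's rho was 0.56 for Col1a1 and Col1a2, 0.52 for Timp3 and Fn1, 0.50 for Sparc and Col1a2, 0.49 for Mgp and Ogn, 0.48 for Mgp and Fn1 and 0.46 for Ogn and Fn1. It was -0.15 for Sparc and Fn1 and -0.11 for Sparc and Timp3. Many cells held genes of several of these pairs: 269 of the 291 Timp3 cells had Fn1 and 268 had Sparc.

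Background in cells that should lack these genes was low but not 0. After thinning, 92.1% of the Ptprc-low cells of the cluster had a Sparc read, against 1.79% of 1342 T-cell-like cells, and 81.9% had a Col1a2 read, against 0.820%. For Col1a1 the shares were 40.7% and 2.09%, and 1.40% in macrophage-like cells, so the Col1a1 reads of macrophage-like cells were not above that background. The median depth before thinning was 147850 reads in those cells of the cluster and 22599.5 in T-cell-like cells, and unthinned the T-cell-like share for Fn1 was 15.9%.

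Fibronectin in leukocytes was found mainly in myeloid classes. After thinning, 63.7% of macrophage-like and 69.6% of monocyte-like cells had an Fn1 read, against 8.35% of T-cell-like and 8.60% of NK-cell-like cells. By mean level over mice, an unnamed cluster led by Mmp12 and Hmox1 was at 3126 ± 691 CPM (SD, n = 14), Ptprc-low cells of the matrix-gene cluster at 2260 ± 825 CPM, an unnamed cluster led by Ly6i and Cxcl9 at 943 ± 458 CPM, monocyte-like cells at 895 ± 376 CPM and macrophage-like cells at 807.2 ± 258 CPM. Dendritic-cell-like cells followed at 299 ± 181 CPM, neutrophil-like cells at 92.1 ± 79.6 CPM, NK-cell-like cells at 43.6 ± 24.2 CPM and T-cell-like cells at 28.7 ± 17.4 CPM. The neighbours from 943 to 807.2 CPM differed by less than their SD.

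Thrombospondin 1 had another order. Monocyte-like cells were highest at 1784 ± 598 CPM (SD, n = 14 mice), then the Mmp12 and Hmox1 cluster at 1153 ± 659 CPM and the Ly6i and Cxcl9 cluster at 403 ± 151 CPM. Neutrophil-like cells were at 209 ± 135 CPM, macrophage-like cells at 174 ± 47.8 CPM and Ptprc-low cells of the matrix-gene cluster at 68.5 ± 31.9 CPM, near the 62.6 ± 71.5 CPM of dendritic-cell-like cells. After thinning, 77.0% of monocyte-like and 29.3% of macrophage-like cells had a Thbs1 read, against 3.13% of T-cell-like cells.

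**Figure D3:**
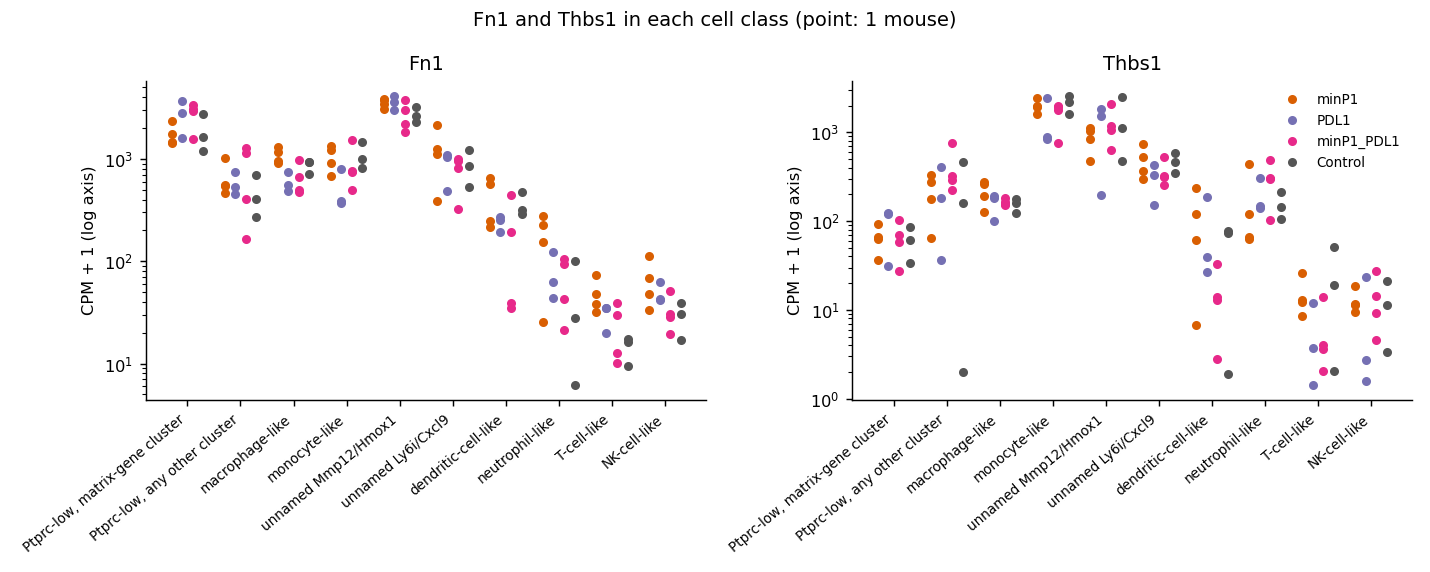
Fn1 (left) and Thbs1 (right) by cell class, 1 point per mouse, on a log axis of CPM + 1, coloured by treatment. Fn1 is highest in the Mmp12 and Hmox1 cluster (mean 3126 CPM) and Thbs1 in monocyte-like cells (mean 1784 CPM), and both are low in T-cell-like and NK-cell-like cells.

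The share of Ptprc-low cells was compared between treatments first. It was 16.7% ± 3.53 of kept cells in minP1 (n = 4), 18.9% ± 5.25 in PDL1 (n = 3), 17.8% ± 3.66 in minP1_PDL1 (n = 4) and 19.2% ± 3.47 in Control (SD, n = 3). No difference was found over the 4 groups (permutation test of F, p = 0.833) or in any of 5 pairs, by two-sided exact permutation with p = 0.371 for minP1, 1 for PDL1 and 0.571 for minP1_PDL1 against Control, 0.8 for minP1_PDL1 against PDL1 and 0.657 for minP1_PDL1 against minP1, all adjusted p = 1. The smallest p such a test allows is 0.1 for 3 against 3 mice and 0.0286 for 3 against 4.

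The makeup of the Ptprc-low cells is given as a description. The matrix-gene cluster held 22.4% ± 4.47 of Ptprc-low cells in minP1, 33.8% ± 17.5 in PDL1, 28.7% ± 12.997 in minP1_PDL1 and 50.9% ± 6.52 in Control. As a share of all kept cells it was 4.09% ± 1.58, 7.39% ± 5.55, 5.64% ± 3.65 and 10.7% ± 2.86 in the same order. The pan-leukocyte list summed to 1384 to 2451 CPM in Ptprc-low cells of minP1 mice, 1029 to 2687 CPM in PDL1, 1351 to 2941 CPM in minP1_PDL1 and 643 to 931 CPM in Control. Like the share of the cluster, the levels of some of the genes given next were highest in Control, and those of others were not. The part of the makeup in these levels was not tested. In reads summed over cells, fewer cells of a type and less RNA per cell cannot be told apart.

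Over all kept cells, type I collagen and Sparc had the highest levels in Control mice, but no gene passed the test in any treatment comparison. edgeR called 0 of 18410 genes (0%) in minP1, PDL1 or minP1_PDL1 against Control, in minP1_PDL1 against either single agent, and in the interaction, while 1278, 1211 and 1915 genes had an unadjusted p under 0.05 in the comparisons with Control. DESeq2 called 38 genes in minP1, 48 in PDL1 and 144 in minP1_PDL1 against Control. The 3 comparisons share the same 3 Control mice, so their values are given side by side and are not independent of each other.

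Sparc was at 182, 91.4, 89.2 and 112 CPM in minP1 mice, 206, 74.6 and 98.0 CPM in PDL1 mice, 205, 95.5, 59.3 and 91.4 CPM in minP1_PDL1 mice and 333, 234 and 252 CPM in Control mice. All 11 treated mice lay below the lowest Control mouse. The log2 change was -1.20 in minP1 (SE 0.39, adjusted p = 0.695), -1.12 in PDL1 (SE 0.43, adjusted p = 0.756) and -1.27 in minP1_PDL1 (SE 0.40, adjusted p = 0.364).

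Col1a1 was at 21.2, 19.7, 11.7 and 20.5 CPM in minP1, 21.8, 13.9 and 12.7 CPM in PDL1, 29.1, 13.5, 9.11 and 11.7 CPM in minP1_PDL1 and 45.2, 34.7 and 33.6 CPM in Control. Again every treated mouse was below every Control mouse, and no change passed (log2 -1.04, -1.23 and -1.24, adjusted p = 0.695, 0.712 and 0.334). Col1a2, the partner chain, was at 96.0, 74.5, 32.3 and 60.6 CPM in minP1, 134, 41.9 and 67.9 CPM in PDL1, 133, 51.5, 37.1 and 49.2 CPM in minP1_PDL1 and 198, 130 and 154 CPM in Control. Only the minP1 mice were all below Control for this gene (log2 -1.28, SE 0.45, adjusted p = 0.695).

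Ogn was at 25.2, 26.4, 17.6 and 18.3 CPM in minP1, 87.3, 21.8 and 39.3 CPM in PDL1, 61.5, 39.2, 21.6 and 22.2 CPM in minP1_PDL1 and 75.01, 138 and 95.2 CPM in Control. The minP1 and minP1_PDL1 mice lay below Control and the PDL1 mice overlapped it. The change in minP1 was -2.22 (SE 0.43, edgeR adjusted p = 0.564), and DESeq2 called it (-2.23, adjusted p = 0.0120). DESeq2 also called Dcn in PDL1 (-5.36, adjusted p = 0.0249) and Col1a1 in minP1_PDL1 (-1.24, adjusted p = 0.0325), which edgeR did not.

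Dcn and Col3a1 rested on few reads. Dcn was at 1.12, 18.9, 9.75 and 1.01 CPM in minP1, 0.873, 0.846 and 0.148 CPM in PDL1, 0.594, 8.21, 0.538 and 7.68 CPM in minP1_PDL1 and 5.22, 40.2 and 31.2 CPM in Control. The 3 PDL1 mice had 34, 22 and 5 Dcn reads in all, and 1782 of the 2061 reads of Control_2 were those of the single cell described above. Col3a1 was at 4.64, 0.650, 0.762 and 1.93 CPM in minP1, 8.63, 2.38 and 0.740 CPM in PDL1, 3.28, 0.0330, 0.0384 and 0.630 CPM in minP1_PDL1 and 9.90, 14.0 and 3.27 CPM in Control, with overlap in all 3 comparisons.

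Mgp, Timp3, Fn1 and Thbs1 overlapped Control in every comparison over all kept cells. Mgp averaged 88.2 ± 51.6 CPM in minP1, 158 ± 123 in PDL1, 114 ± 67.4 in minP1_PDL1 and 183 ± 118 in Control. Timp3 averaged 77.0 ± 29.2, 113 ± 78.9, 113 ± 37.4 and 107 ± 39.2 CPM in the same order. Fn1 averaged 853 ± 130, 827 ± 394, 857 ± 429 and 871 ± 227 CPM, and Thbs1 246 ± 51.6, 190 ± 61.3, 278 ± 93.2 and 215 ± 34.9 CPM.

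Counted by overlap, 4 of 10 genes were below Control in every minP1 mouse, against 5.83% of all genes with 10 or more reads a mouse on average. In PDL1 and in minP1_PDL1 the count was 3 of 10 each, against 6.41% and 5.96% of all genes. Sparc, Col1a1, Col1a2 and Ogn had most of their reads in the same cluster, so their counts are not separate observations. The share of all genes below Control in every treated mouse at once, as Sparc and Col1a1 were, was not counted. Neither comparison of minP1_PDL1 with a single agent had a gene of the 10 without overlap. Of all genes counted, 1.93% lay below and 2.09% above PDL1 in every minP1_PDL1 mouse. Against minP1 the shares were 2.01% and 1.54%.

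**Figure D4:**
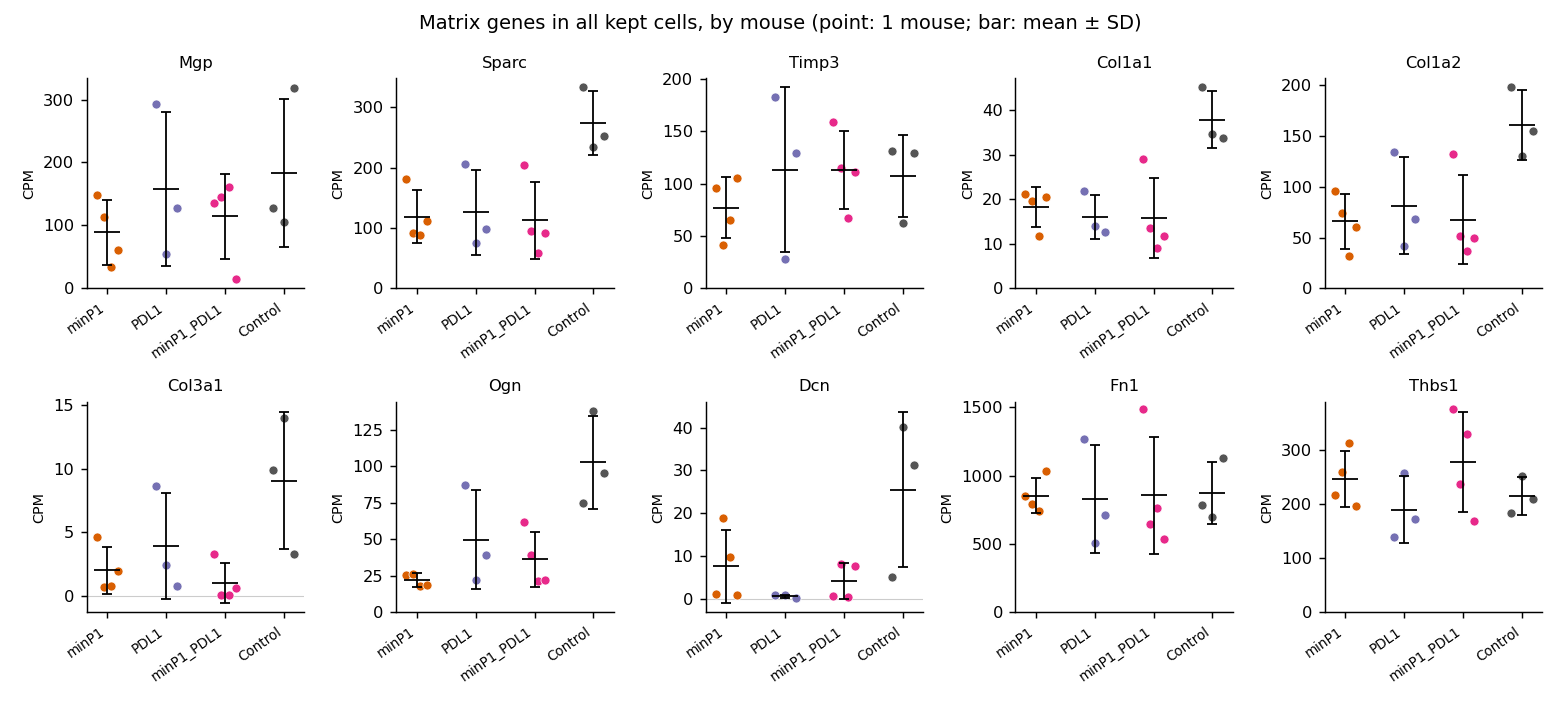
CPM of each gene over all kept cells of a mouse (vertical axes from 0, 1 scale per gene), 1 point per mouse, with mean ± SD for minP1 (n = 4), PDL1 (n = 3), minP1_PDL1 (n = 4) and Control (n = 3). For Sparc and Col1a1 all treated mice lie below the Control mice, and for Fn1 and Thbs1 the groups overlap.

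In Ptprc-low cells alone, Sparc and Col1a2 lay below Control in every treated mouse. The share of all genes with that joint order was not counted, and shares by single comparison are given below. edgeR called 0 of 14204 genes (0%) in each comparison and the interaction, except 1 gene (0.00704%) in minP1_PDL1 against Control, Ccl3, a chemokine named after its value was seen (log2 3.61, SE 0.45, adjusted p = 0.0120). Unadjusted p values under 0.05 were found for 1124, 1231 and 1474 genes in minP1, PDL1 and minP1_PDL1 against Control, and DESeq2 called 111, 113 and 260. None of the 10 genes passed in edgeR.

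Sparc in Ptprc-low cells was at 721, 625, 593 and 747 CPM in minP1, 591, 761 and 485 CPM in PDL1, 667, 565, 333 and 554 CPM in minP1_PDL1 and 1035.6, 1060.2 and 901 CPM in Control. Every treated mouse was below Control, with a log2 change of -0.63 (SE 0.20, adjusted p = 0.467), -0.72 (SE 0.21, adjusted p = 0.400) and -0.92 (SE 0.20, adjusted p = 0.156). Col1a2 was at 374, 507, 230 and 410 CPM in minP1, 378, 432 and 321 CPM in PDL1, 428, 292, 218 and 276 CPM in minP1_PDL1 and 617, 555 and 553 CPM in Control, again with no overlap (-0.65, -0.62 and -0.93, adjusted p = 0.535, 0.552 and 0.218). Ogn was at 89.4, 186, 136 and 119 CPM in minP1, 253, 229 and 191 CPM in PDL1, 181, 237, 108 and 141 CPM in minP1_PDL1 and 243, 667 and 358 CPM in Control. For Ogn the minP1 and minP1_PDL1 mice lay below Control (-1.72, SE 0.33, adjusted p = 0.245, and -1.34, SE 0.33, adjusted p = 0.186).

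DESeq2 called 5 of these changes. They were Ogn (-1.69, adjusted p = 0.00032) in minP1, Dcn (-6.04, adjusted p = 0.0252) in PDL1, and Sparc (-0.90, adjusted p = 0.0033), Ogn (-1.33, adjusted p = 0.0077) and Col1a2 (-0.90, adjusted p = 0.0219) in minP1_PDL1. The 3 PDL1 mice had 28, 0 and 1 Dcn reads in Ptprc-low cells. In the other cells DESeq2 called Sparc in minP1_PDL1 against Control (-1.87, adjusted p = 0.0246), where edgeR called 0 of 17245 genes (0%). The other cells include 33 cells of the matrix-gene cluster and the single Control_2 cell described above, which held 744 Sparc reads. Their part in this DESeq2 call was not tested.

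Col3a1 and Thbs1 went separate ways in Ptprc-low cells of minP1_PDL1 mice. Col3a1 was at 9.61, 0, 0 and 0.197 CPM there, against 31.9, 11.5 and 11.4 CPM in Control, all below (log2 -2.78, SE 1.22, adjusted p = 0.445). Thbs1 was at 86.8, 134, 394 and 139 CPM in minP1_PDL1, against 76.4, 74.9 and 86.4 CPM in Control, all above (1.23, SE 0.51, adjusted p = 0.423). Counted by overlap, 3 of 10 genes were below Control in minP1 (4.7% of all genes), 3 in PDL1 (9.01%) and 5 in minP1_PDL1 (6.21%), and 1 was above in minP1_PDL1 (6.31%).

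**Figure D5:**
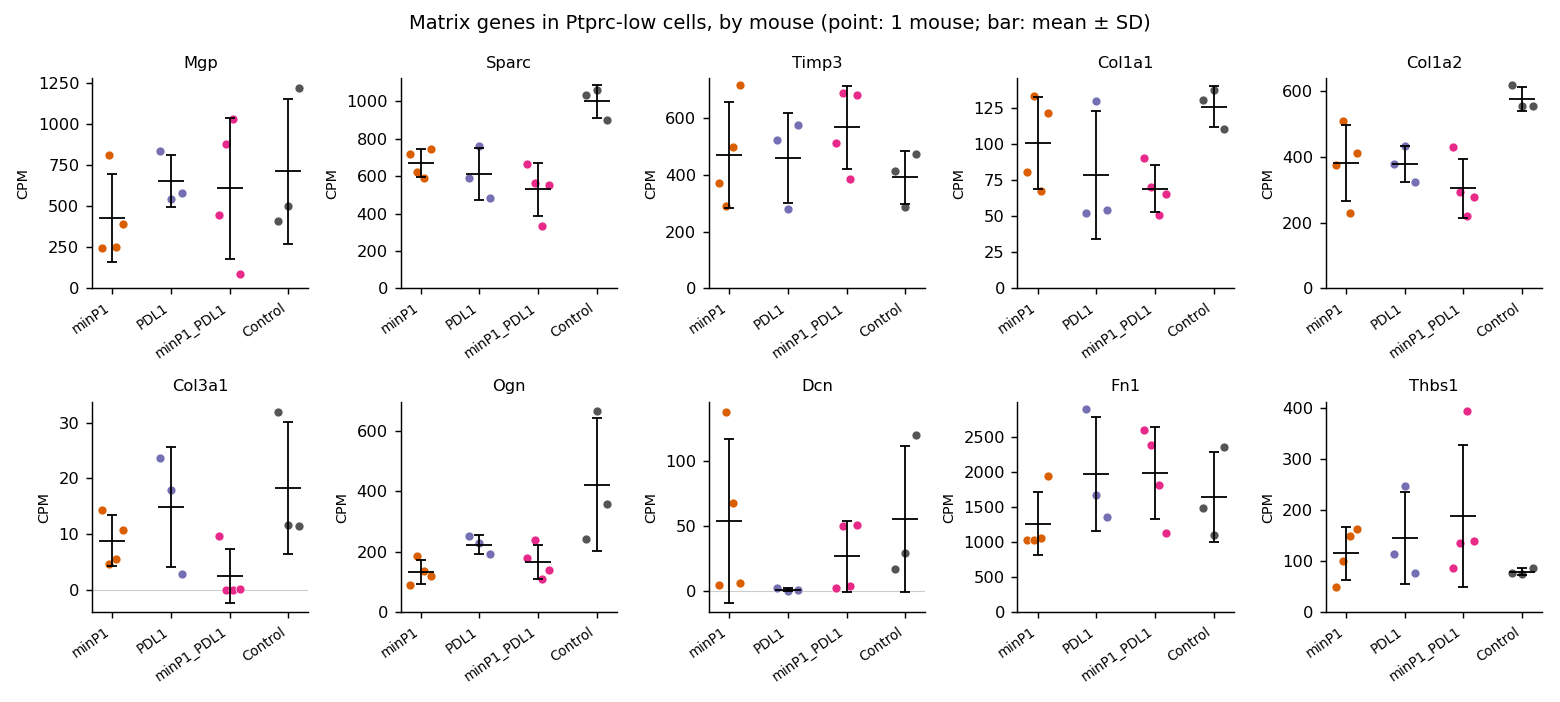
CPM of each gene in Ptprc-low cells of a mouse (vertical axes from 0), 1 point per mouse, with mean ± SD for minP1 (n = 4), PDL1 (n = 3), minP1_PDL1 (n = 4) and Control (n = 3). Sparc and Col1a2 lie below Control in every treated mouse, and Thbs1 lies above Control in every minP1_PDL1 mouse.

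Inside the matrix-gene cluster the minP1 and PDL1 mice overlapped Control for all 10 genes. Of genes with 10 or more reads a mouse on average, 3.47% lay below and 2.07% above Control in every minP1 mouse. For PDL1 the shares were 9.19% and 4.82%. Sparc averaged 1121 ± 62.4 CPM in minP1, 935 ± 420 CPM in PDL1, 793 ± 66.2 CPM in minP1_PDL1 and 1120 ± 121 CPM in Control. Col1a2 averaged 626 ± 159, 565 ± 154, 475 ± 67.0 and 649 ± 34.8 CPM, and Col1a1 165 ± 40.9, 118 ± 75.9, 103 ± 9.66 and 147 ± 27.8 CPM, in the same order. Ogn averaged 222 ± 70.7, 343 ± 90.3, 271 ± 67.3 and 447 ± 232 CPM in that order, and Fn1 1749 ± 409, 2720 ± 882, 2746 ± 878 and 1776 ± 693 CPM. Mgp averaged 834 ± 401 CPM in minP1, 998 ± 121 CPM in PDL1, 1081 ± 983 CPM in minP1_PDL1 and 756 ± 441 CPM in Control. Thbs1 averaged 64.1 ± 23.4, 98.9 ± 40.4, 65.4 ± 30.4 and 67.8 ± 28.8 CPM, Col3a1 14.3 ± 7.64, 22.7 ± 16.9, 3.04 ± 5.91 and 19.6 ± 12.3 CPM and Dcn 3.30 ± 4.03, 0.618 ± 0.902, 5.27 ± 10.5 and 9.74 ± 8.89 CPM in the same order. The cluster held 12 to 65 cells a mouse, with the fewest in PDL1_2, and the part of the pericyte and endothelial sums given above in these levels was not tested. The log2 change of Sparc was 0.02 in minP1, -0.22 in PDL1 and -0.43 in minP1_PDL1, and none of the 10 genes passed. edgeR called 1 of 12339 genes (0.0081%) in minP1 against Control, Plac8 (-2.62, adjusted p = 0.0261), 1 (0.0081%) in minP1_PDL1 against Control, Ereg, an epidermal growth factor receptor ligand (1.33, adjusted p = 0.0393), and 0 (0%) elsewhere. Both genes were named after their values were seen.

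Timp3, the metalloproteinase inhibitor, did not overlap Control in the cluster of minP1_PDL1 mice. It was at 596, 476, 919 and 1026.6 CPM in minP1, 670, 492 and 872 CPM in PDL1, 645, 1014.7, 990 and 903 CPM in minP1_PDL1 and 444, 358 and 509 CPM in Control. All minP1_PDL1 mice exceeded all Control mice, as did 2.37% of genes (log2 1.09, SE 0.26, adjusted p = 0.507). Sparc, Col1a1, Col1a2 and Col3a1, 4 of 10, were below Control in all minP1_PDL1 mice, against 5.55% of genes. Sparc and Col1a1, 2 of 10, were below all minP1 mice too, against 2.18%.

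In the myeloid classes none of the genes passed either. Fn1 in macrophage-like cells was at 1164.5, 948, 903 and 1295.5 CPM in minP1, 549, 489 and 751 CPM in PDL1, 982, 478, 658 and 491 CPM in minP1_PDL1 and 718, 932 and 941 CPM in Control. Against Control, the log2 change was 0.32 for minP1 (adjusted p = 1), -0.55 for PDL1 (adjusted p = 1) and -0.40 for minP1_PDL1 (adjusted p = 0.850). Fn1 in monocyte-like cells was at 371, 388 and 795 CPM in PDL1, against 819, 1000.7 and 1468 CPM in Control, all below (-1.10, SE 0.38, adjusted p = 0.793). The share of all genes without overlap was not counted in monocyte-like cells. edgeR called 0 of 14122 genes in macrophage-like, 0 of 10063 in monocyte-like and 0 of 10759 in dendritic-cell-like cells in every comparison (0% each).

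Thbs1 in monocyte-like cells was at 1974, 2432, 1914 and 1601 CPM in minP1, 835, 2464 and 895 CPM in PDL1, 1775, 1987, 1947 and 756 CPM in minP1_PDL1 and 1599, 2603 and 2189 CPM in Control. The groups overlapped in every comparison, with log2 changes of -0.10, -0.64 and -0.41 against Control (adjusted p = 1, 0.909 and 1). The other 8 genes had few reads in macrophage-like cells, at most 17.5 CPM in a mouse. Timp3 was at 0.811, 1.06, 0.965 and 17.5 CPM in macrophage-like cells of minP1_PDL1 mice, against 0.424, 0.503 and 0.303 CPM in Control, and Col1a2 at 1.51, 5.58, 3.86 and 6.59 CPM in minP1_PDL1, against 0.283, 1.28 and 0.807 CPM in Control. Mgp was at 0.695, 0.603, 0.121 and 0.659 CPM in minP1_PDL1, against 0.847, 2.74 and 2.02 CPM in Control. The minP1_PDL1 and Control mice did not overlap for Timp3, Col1a2 and Mgp, on 1 to 213 reads a mouse, and none of these changes passed (Timp3 and Col1a2 adjusted p = 0.784 each, Mgp adjusted p = 0.813). The share of all genes without overlap was not counted in macrophage-like cells either, so no result is read from these genes. Col3a1 had 29, 1, 1 and 15 reads in macrophage-like cells of minP1 mice and 0 in each Control mouse (adjusted p = 1). Fn1 in dendritic-cell-like cells averaged 422 ± 225 CPM in minP1, 237 ± 39.5 CPM in PDL1, 177 ± 191 CPM in minP1_PDL1 and 358 ± 97.8 CPM in Control. Thbs1 there averaged 104 ± 97.6 CPM in minP1, 83.3 ± 88.9 CPM in PDL1, 14.7 ± 12.6 CPM in minP1_PDL1 and 49.9 ± 42.4 CPM in Control.

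The lists of matrix genes had no gene past the test in any comparison with Control over all kept cells. Of 18 collagens tested, 13 lay below 0 in minP1 (median log2 -1.19), 16 in PDL1 (-0.56) and 16 in minP1_PDL1 (-0.96), against medians near 0 over all genes. Col5a2 in minP1 (-6.44, SE 1.64, adjusted p = 0.695) and in minP1_PDL1 (-7.81, SE 1.85, adjusted p = 0.300) had the smallest p of the list, and Col1a1 had it in PDL1. Of 26 matrix receptors, 14, 18 and 13 lay below 0, with medians of -0.02, -0.05 and -0.01. The share of all genes below 0 is not given here, so no result is read from the counts of either list. Because the collagen list includes Col1a1, its counts and medians are not separate from the Col1a1 values above.

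The genes most like each of the 10 over the 14 mice, by Pearson's r of log2(CPM + 1) in all kept cells, are given as a description. Sparc was nearest to Cd34 (0.968), Htra1 (0.968) and Hbegf (0.965), Col1a2 to Baiap2l1 (0.972), Glo1 (0.967) and Pcolce (0.965), and Col1a1 to Hbegf (0.945), Sparc (0.932) and Cd34 (0.926). Ogn was nearest to Slit3 (0.911), Timp3 to Epn2 (0.925), Col3a1 to Cd248 (0.922) and Mgp to Rbfox2 (0.875). Fn1 was nearest to Parp16 (0.872) and Spp1 (0.867), Mmp8 was among the genes nearest to Thbs1 (0.893), and Dcn had the weakest neighbours, led by Spata2l (0.796). The share of the matrix-gene cluster differs between mice and is common to all of these values.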

How the data were processed

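Read counts per gene and cell were taken as deposited. Per the labels and the submitters' processing notes, the authors' tools were cutadapt 2.10 for trimming, Bowtie2 2.3.4.1 for alignment (build mm10) and Seurat 2.3.4, and they called mice and doublets from hashtag reads. The counts were not collapsed by molecular identifier. Of 8262 barcodes, 141 doublets and 6 without a hashtag (147 columns not used here) were left out, as were 383 of the 8115 barcodes of mice with over 25% mitochondrial reads (36 genes), which left 7732 cells, where the study states 7613. No cell had under 201 genes, and no doublet caller was run beyond the hashtags. A hashtag library deposited as a second sample was not used.

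Cells were clustered with scanpy 1.11.5 without the 10 genes and the matrix gene lists, and classes were named from marker lists. Counts were summed per mouse and tested with edgeR 4.0.16 (quasi-likelihood, TMM scaling, filterByExpr, two-sided, Benjamini-Hochberg over all genes tested). An SE is the log2 change over the square root of F. All 4 groups shared 1 estimate of the spread, and Ptprc-low against other cells had the mouse as a block. DESeq2 1.42.0 was an alternative. The edgeR script was tested on simulated data. Mice are separate animals. Of the gene symbols, 18488 of 22836 were matched to GENCODE M21 for positions.

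The 10 genes were named whatever their values, but for the treatments in monocyte-like and dendritic-cell-like cells only Fn1 and Thbs1 are given. Of each list, up to 6 genes with the smallest p past the threshold were eligible to be named, or the 2 with the smallest p where none passed. The 10 genes and the lists were chosen with earlier results of these data known. Some genes that these rules would name are not reported here.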

Additional observations from a re-analysis of the deposited data

Results flagged for a closer look

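Of 62 sets of 4 mice examined (a gene, a set of cells and a group each, or the share of Ptprc-low cells in a group), 9 held 1 mouse far from the other 3. The rule flags about 1 in 20 sets of normally distributed values. CPM near 0 need not be so, and all kept cells contain the Ptprc-low and the other cells. No excess is therefore read from the 9. Over all kept cells, Col1a1 was at 11.7 CPM in minP1_3 and at 19.7 to 21.2 CPM in the other minP1 mice, and Col1a2 was at 133 CPM in minP1_PDL1_1 and at 37.1 to 51.5 CPM in the other minP1_PDL1 mice. In Ptprc-low cells, Col3a1 was at 9.61 CPM in minP1_PDL1_1, where the others had 0, 0 and 0.197 CPM. Fn1 was at 1948 CPM in Ptprc-low cells of minP1_4 and at 1028 to 1052 CPM in the other minP1 mice. Thbs1 was at 394 CPM in Ptprc-low cells of minP1_PDL1_3 and at 86.8 to 139 CPM in the others.

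In the cells not called Ptprc-low, Mgp was at 116 CPM in minP1_1 and at 0.888 to 2.07 CPM in the other minP1 mice. Mgp was at 13.7 CPM in those cells of minP1_PDL1_3, where the others had 0.956 to 2.66 CPM. Ogn was at 4.55 CPM in minP1_1 and at 0.538 to 1.08 CPM in the other minP1 mice, and Dcn at 1.51 CPM in minP1_3, where the others had 0 to 0.157 CPM. The causes were not tested.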

How the results depend on the processing

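Most results kept their direction and their side of the threshold under the alternatives run (DESeq2, RLE scaling, no low count filter, the replicate block, each mouse left out, thinning, other Ptprc thresholds, no cell filter and other sets of cells). The settings that left out a cluster or 1 cell, kept the cluster alone or used Ptprc bins were chosen after seeing the data. Dcn and Col3a1 had reads in 58 and 72 cells only, and 1 cell held 33.7% and 28.6% of them. Where a value moved, the cause was not tested.

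DESeq2 called 38 genes in minP1, 48 in PDL1 and 144 in minP1_PDL1 against Control over all kept cells, 3 in minP1_PDL1 against PDL1, 44 against minP1 and 10 in the interaction, where edgeR called 0. In Ptprc-low cells it called 111, 113 and 260 against Control, 12 in minP1_PDL1 against PDL1 and 17 against minP1. In other cells it called 22, 26 and 89 against Control, 5 in minP1_PDL1 against PDL1 and 50 against minP1. With cells thinned, edgeR called 3 genes in PDL1 and 19 in minP1_PDL1 over all kept cells, and 2983 in Ptprc-low against other cells. With no Ptprc read as the rule it called 4555 in Ptprc-low against other cells. In Ptprc-low cells, 1 gene, Ccl3, was called in minP1 and 1 in PDL1 with the threshold under 1 per 10000, and 0 in minP1_PDL1 with the threshold under 5, with no Ptprc read or in the matrix-gene cluster alone, where minP1_PDL1 against minP1 gave 2.

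The same-numbered mice did not deviate together (mean correlation 0.0215, range -0.0704 to 0.194 over 19 pairs, against -0.00755 over 54 other pairs), so the numbers were not taken to pair the mice. The replicate block gave 11, 11 and 76 genes in minP1, PDL1 and minP1_PDL1 against Control in Ptprc-low cells, and Sparc passed in minP1_PDL1 (-0.998, edgeR adjusted p = 0.0301).

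Leaving out 1 mouse gave 0 to 3 genes called in minP1, 0 to 1 in PDL1 and 0 to 3 in minP1_PDL1 against Control and 0 to 1 in minP1_PDL1 against minP1 in Ptprc-low cells. The Ccl3 call in minP1_PDL1 was lost without Control_1 and without Control_3. It gave 0 to 2 genes in minP1_PDL1 against Control over all kept cells, 2 of them without PDL1_2, and in other cells 0 to 1 in minP1_PDL1 against Control, 1 without minP1_PDL1_1, and 0 to 2 against minP1, 2 without minP1_3.

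The difference in the share of Ptprc-low cells, in percentage points, turned direction with no Ptprc read as the rule (0.274 in minP1, 0.254 in PDL1 and 0.154 in minP1_PDL1 against Control, -0.121 in minP1_PDL1 against minP1) and with no cell filter (0.455 in PDL1). Leaving out 1 mouse gave -2.98 to 2.26 in PDL1 and -3.23 to 0.200 in minP1_PDL1 against Control, and -3.63 to 1.62 in minP1_PDL1 against PDL1 and -0.541 to 2.75 against minP1.

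The share of reads in Ptprc-low cells moved most with no Ptprc read as the rule, to 45.2% for Mgp, 26.9% for Sparc, 37.6% for Timp3, 29.9% for Col1a1, 30.8% for Col1a2, 33.7% for Ogn, 34.1% for Dcn and 16.7% for Fn1. With each cell weighted equally it was 86.9% for Sparc and 71.8% for Col1a1, and the monocyte-like share of Fn1 was 8.48% and the macrophage-like share of Thbs1 13.4%. At clustering resolution 0.5 the macrophage-like share was 48.1% for Fn1 and 45.8% for Thbs1, with no cell filter the monocyte-like share of Fn1 was 9.97% and the macrophage-like share of Thbs1 40.99%, and with Ptprc-low under 5 per 10000 its share of Thbs1 was 17.3%.

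The log2 changes against Control of the 10 genes that turned direction, none of them past the threshold in edgeR, were as follows. Without the matrix-gene cluster, log2 changes that turned direction were Timp3 0.87 (minP1), Fn1 0.41 (minP1) and Fn1 0.037 (minP1_PDL1) in all kept cells. With the replicate number as a block, log2 changes that turned direction were Fn1 0.024 (minP1) and Timp3 -0.091 (PDL1) in all kept cells, Timp3 -0.00059 (minP1) and Mgp 0.051 (PDL1) in Ptprc-low cells and Mgp -0.38 (minP1_PDL1) in other cells. With cells thinned to 10000 reads, log2 changes that turned direction were Timp3 -0.13 (minP1_PDL1) in all kept cells. With Ptprc-low set under 5 per 10000, log2 changes that turned direction were Timp3 -0.14 (minP1) in Ptprc-low cells and Mgp -0.54 (minP1), Col3a1 0.41 (minP1), Col3a1 0.045 (PDL1) and Ogn 0.27 (minP1_PDL1) in other cells. With Ptprc-low cells of the matrix-gene cluster alone, log2 changes that turned direction were Col1a1 0.21 (minP1), Mgp 0.27 (PDL1), Col3a1 0.18 (PDL1) and Mgp 0.46 (minP1_PDL1) in Ptprc-low cells. With Ptprc-low set under 1 per 10000, log2 changes that turned direction were Mgp 0.029 (PDL1) in Ptprc-low cells and Ogn 0.34 (PDL1), Timp3 -0.19 (minP1_PDL1), Ogn 0.42 (minP1_PDL1) and Fn1 0.020 (minP1_PDL1) in other cells. With no Ptprc read as the rule, log2 changes that turned direction were Mgp 0.88 (PDL1) and Mgp 0.14 (minP1_PDL1) in Ptprc-low cells and Mgp -0.96 (minP1), Mgp -0.85 (PDL1), Timp3 -0.053 (PDL1), Mgp -1.01 (minP1_PDL1) and Timp3 -0.68 (minP1_PDL1) in other cells. Without the matrix-gene and epithelial-like clusters, log2 changes that turned direction were Mgp -0.99 (minP1), Timp3 0.95 (minP1), Ogn 0.032 (minP1), Mgp -1.61 (PDL1) and Mgp -1.36 (minP1_PDL1) in other cells. Without the cell with most Dcn reads, log2 changes that turned direction were Col3a1 0.47 (minP1) and Col3a1 0.95 (PDL1) in other cells.

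In all kept cells, leaving out 1 mouse turned the direction of Fn1 in minP1 (-0.15 to 0.21), Mgp in PDL1 (-1.01 to 0.44), Timp3 in PDL1 (-0.44 to 0.53), Fn1 in PDL1 (-0.51 to 0.17), Thbs1 in PDL1 (-0.48 to 0.0074), Timp3 in minP1_PDL1 (-0.19 to 0.27) and Fn1 in minP1_PDL1 (-0.41 to 0.22). In Ptprc-low cells, leaving out 1 mouse turned the direction of Timp3 in minP1 (-0.084 to 0.38), Dcn in minP1 (-1.15 to 1.20), Mgp in PDL1 (-0.40 to 0.51), Col3a1 in PDL1 (-0.88 to 0.36), Fn1 in PDL1 (-0.14 to 0.60), Mgp in minP1_PDL1 (-0.60 to 0.40) and Dcn in minP1_PDL1 (-1.58 to 0.21). In other cells, leaving out 1 mouse turned the direction of Mgp in minP1 (-1.52 to 4.47), Col3a1 in minP1 (-4.81 to 0.96), Ogn in minP1 (-2.66 to 0.23), Dcn in minP1 (-5.59 to 2.33), Thbs1 in minP1 (-0.038 to 0.20), Timp3 in PDL1 (-0.32 to 1.29), Col3a1 in PDL1 (-3.44 to 1.44), Ogn in PDL1 (-1.58 to 0.90), Dcn in PDL1 (-6.25 to 2.34), Mgp in minP1_PDL1 (-1.29 to 1.87), Timp3 in minP1_PDL1 (-0.34 to 0.34), Col3a1 in minP1_PDL1 (-4.52 to 0.43), Ogn in minP1_PDL1 (-1.04 to 1.62), Fn1 in minP1_PDL1 (-0.42 to 0.20) and Thbs1 in minP1_PDL1 (-0.049 to 0.47).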
